A study of Mus musculus with 12 samples.

Results

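The genes described here are 46 mouse genes of S phase, mitosis and the passage from G1, chosen by their symbols from the 49585 rows of a raw count table. RNA-seq was done on lymph node (LN) T cells of 4 groups with 3 samples each. All mice were male and 6-10 wk old, and the cells were sorted as TCRβ+ (antibody H57) and CD62L+, with the study's methods adding the absence of CD44, a gate for naive T cells. The first groups were CD4+ and CD8+ T cells of C57BL/6 (B6) mice. The other 2 groups were the CD8.1 and the CD8.2 T cell populations found in CD8Dual mice, named 8in4 in the sample titles. In CD8Dual mice the altered Cd4 locus encodes CD8α.1 and CD8β while the endogenous Cd8 locus is intact and encodes CD8α.2, so that both T cell populations carry a CD8 co-receptor. RNA came from pooled sorted cells, and no label says that samples of a group came from separate mice, so P values measure the spread between these samples, which may be partly technical.

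A resting naive T cell sits outside the cycle, in G0, and holds few transcripts for mitosis. Entry into the cycle runs through D-type cyclins with Cdk4 or Cdk6, which release E2F factors from Rb family proteins. E2F factors then raise the genes of DNA replication. The Mcm2 to Mcm7 helicase is loaded on origins in G1, with Cdc6 and Cdt1, and fires in S phase. Later in the cycle cyclin A2, the B-type cyclins and Cdk1 drive mitosis, the Aurora and Polo kinases build the spindle, and the anaphase-promoting complex ends mitosis by destroying cyclins. Genes of the late wave are held down in resting cells through a promoter element, the cell cycle genes homology region (CHR), often beside CCAAT boxes.

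Promoter sequences of 4 of the genes are shown because the expression results separate them by role: Ccnb2 and Plk1 belong to the mitotic genes that were higher in CD8.1 T cells, Mcm6 is a licensing gene that was higher in the CD8 lineage, and Kif23 is a mitotic gene that went with the CD8 lineage. RefSeq windows on GRCm38.p6 were available for 37 of the 46 genes, as 41 windows since 4 genes have 2 each. Each was read from 250 bases before the start to 30 bases from it. Capitals mark matches, on either strand, to TTTGAA or TTTAAA (CHR), CCAAT, and TTCCCGC or TTGGCGC (E2F).
Ccnb2 (chr9:70421525-70421804, minus strand): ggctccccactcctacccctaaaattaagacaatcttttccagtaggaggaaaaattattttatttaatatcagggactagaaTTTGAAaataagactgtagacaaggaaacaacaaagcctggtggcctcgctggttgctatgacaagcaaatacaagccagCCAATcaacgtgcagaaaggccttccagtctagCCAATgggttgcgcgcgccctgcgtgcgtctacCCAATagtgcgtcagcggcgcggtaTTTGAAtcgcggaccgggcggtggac
Plk1 (chr7:122159185-122159464, plus strand): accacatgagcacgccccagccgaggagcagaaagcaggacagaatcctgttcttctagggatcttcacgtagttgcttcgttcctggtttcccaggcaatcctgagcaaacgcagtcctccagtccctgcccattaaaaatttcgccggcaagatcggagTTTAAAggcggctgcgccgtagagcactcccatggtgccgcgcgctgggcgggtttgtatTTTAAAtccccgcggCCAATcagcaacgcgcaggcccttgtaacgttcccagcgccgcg
Kif23 (chr9:61946770-61947049, minus strand): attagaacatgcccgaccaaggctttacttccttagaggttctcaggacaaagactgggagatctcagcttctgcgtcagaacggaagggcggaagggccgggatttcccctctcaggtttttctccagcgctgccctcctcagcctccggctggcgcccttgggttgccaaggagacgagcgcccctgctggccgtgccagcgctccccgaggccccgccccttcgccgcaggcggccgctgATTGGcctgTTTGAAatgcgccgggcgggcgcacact
Mcm6 (chr1:128359676-128359955, minus strand): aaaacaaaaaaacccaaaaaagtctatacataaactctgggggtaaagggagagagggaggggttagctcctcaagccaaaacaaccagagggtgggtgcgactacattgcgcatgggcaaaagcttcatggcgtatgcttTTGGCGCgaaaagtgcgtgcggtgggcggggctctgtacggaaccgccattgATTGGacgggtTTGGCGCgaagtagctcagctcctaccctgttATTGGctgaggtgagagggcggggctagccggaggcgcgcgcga

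The Ccnb2 window held 3 CCAAT matches, which began 87, 54 and 21 bases before the start. It also held a TTTGAA that began 167 bases before the start and another at base 5 after it. Plk1 had TTTAAA at 89 and 29 bases before the start and a CCAAT 14 bases before it. Kif23 also held both, a CCAAT that began 7 bases before the start and a TTTGAA at base 3, and no E2F match. Mcm6 had no CHR match but TTGGCGC at 109 and 46 bases before the start, and CCAAT at 57 and 14 bases before it. Of the 17 windows of mitotic genes, 14 (82.4%) held a CHR match and 15 (88.2%) a CCAAT, against 26.7% and 36.1% of all 32851 windows of that length. Both together were found in 13 of the 17 and in 10% of all windows. E2F letters were found in 3 of these 17 windows (17.6%) and in 7 of 9 windows of licensing genes (77.8%), against 6.33% of all windows. CCAAT was also found in 7 of the 9 licensing windows (77.8%), and a CHR match in 2 (22.2%). In 2 member windows a TTGGCGC overlapped a CCAAT match. A match describes letters only.

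All 46 genes passed the filter on low counts, which kept 13118 genes, and none was at 0 counts in any sample. Totals were 18667474 to 37110502 counts per sample. Values below are CPM, counts scaled to each library's total after TMM adjustment, and levels are compared between genes only per kilobase (kb) of summed exons. The roles differed widely in level. Licensing and fork genes had a median of 17.3 CPM per kb over all samples, led by Pcna, the sliding clamp of DNA polymerases, at 76.7 and Mcm4 at 28.0. The 12 mitotic cyclin, kinase and anaphase genes had a median of 1.23 CPM per kb, with Cdc20 (3.55) and Ccnb2 (3.505) highest. The 9 spindle and chromosome genes had a median of 0.861 CPM per kb, with Top2a (2.28), the topoisomerase of S phase and mitosis, and Kif23 (1.82) highest. These 2 roles together are the 21 mitotic genes below. Genes of nucleotide supply ran up to 16.0 CPM per kb in Dut, which clears dUTP, followed by Rrm1 (5.82). Of the G1 genes, Ccnd2 (51.9 CPM per kb) and the inhibitor Cdkn1b (21.2) were highest, and of the remaining 3 Hmgb2 (33.7) and Stmn1 (17.4). Transcripts of most licensing genes, of cyclin D2 and of p27 were thus abundant in these cells while those of mitosis were scarce. Cenpf, a kinetochore protein, fell to 1 count in a sample and was the lowest of all at 0.0508 CPM per kb.

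**Figure D1:**
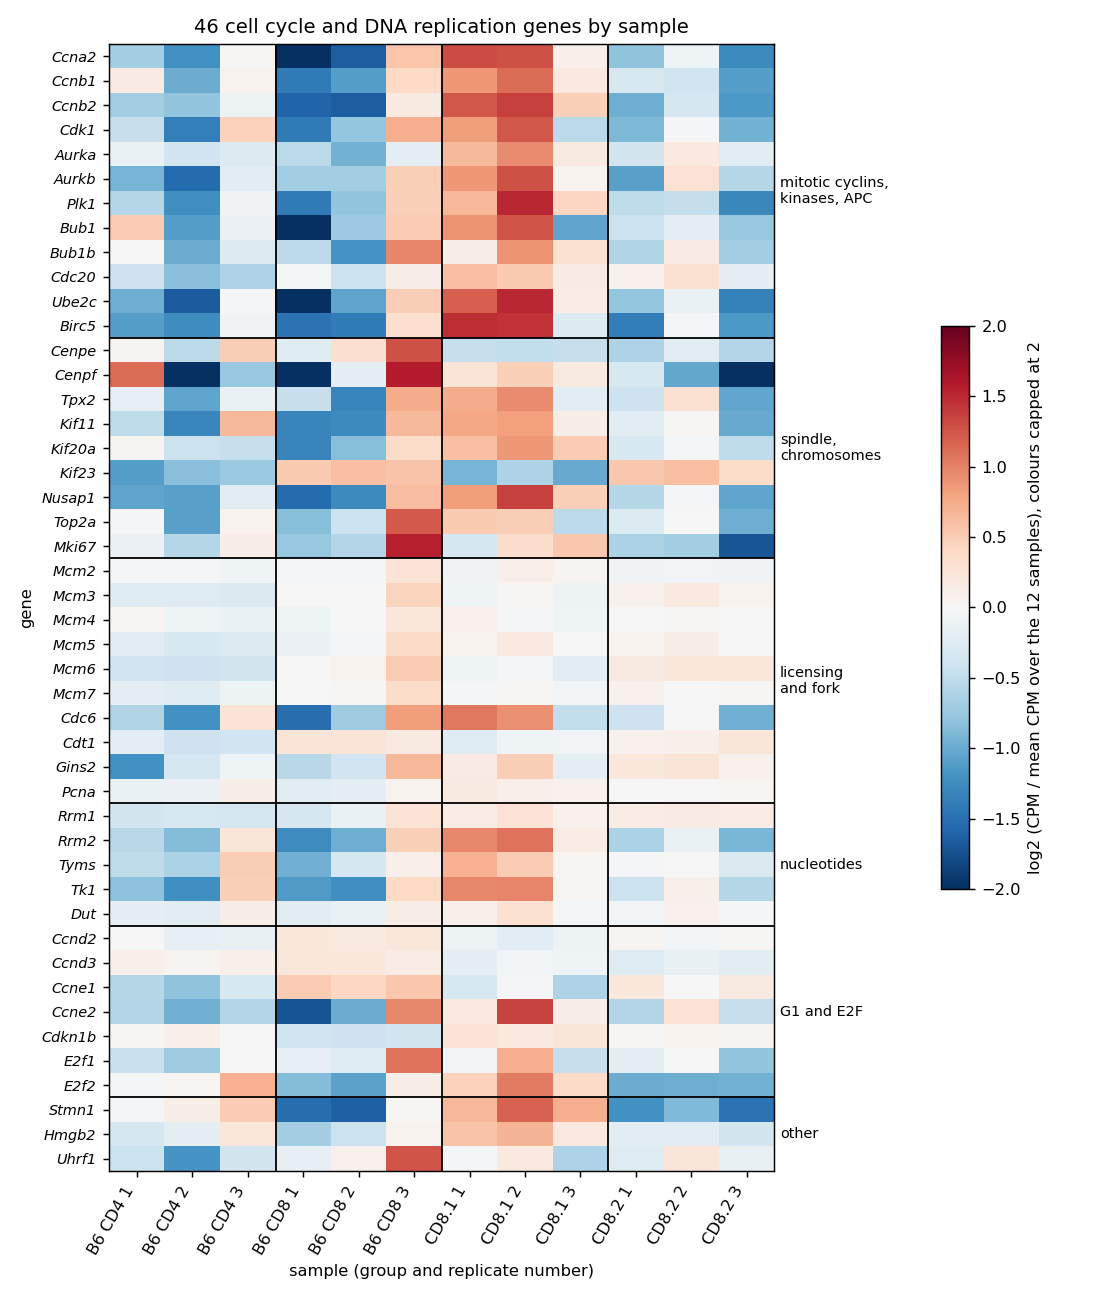
Colours give log2 of CPM over the gene's mean CPM in the 12 samples, capped at 2 in either direction and with CPM below 0.1 set to 0.1; rows are the 46 genes by role, columns the samples by group. CD8.1 replicates 1 and 2 and B6 CD8 replicate 3 are high in most mitotic rows, and Kif23 is high in every CD8 and CD8.2 sample.

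Replicates of a group spread more widely in the mitotic genes than in the Mcm helicase genes. The median coefficient of variation (CV) of the 21 mitotic genes was 78.4% in B6 CD8+, 37.5% in B6 CD4+, 30.7% in CD8.1 and 33.6% for CD8.2 T cells, while that of Mcm2 to Mcm7 was 16.4%, 2.27%, 6.05% and 2.74%. Over all 10 licensing and fork genes the median was 16.4%, 5.56%, 6.37% and 3.98%, but Cdc6, the loader of the helicase, spread as widely as the mitotic genes, with a CV of 83.5%, 52.5%, 47.5% and 32.4%. B6 CD8 replicate 3 was the highest of its group in 20 of the 21 mitotic genes, at a median of 3.43 times the mean of replicates 1 and 2, and in all 6 Mcm genes. CD8.2 replicate 2 was highest in 18 of 21 and CD8.1 replicate 2 in 15 of 21, whereas CD8.1 replicate 3 was lowest of its group in 18. Mki67, the proliferation marker Ki-67, shows the scale of it. Its level was 7.09, 5.22 and 8.51 CPM in B6 CD4+ T cells, 4.54, 5.16 and 22.7 in B6 CD8+, 6.11, 9.91 and 11.3 in CD8.1 and 4.98, 4.83 and 2.36 in CD8.2. Top2a measured 19.9, 9.74 and 21.6 CPM in B6 CD4+, 11.4, 15.2 and 48.2 in B6 CD8+, 29.5, 29.0 and 14.3 in CD8.1 and 17.1, 20.4 and 10.5 in CD8.2. Neither gene passed an adjusted P of 0.05 in any of the 5 comparisons, although without the filter on low counts Mki67 was called in 4 of them and Top2a in all 5. In these bulk samples, more cycling cells and more RNA per cell cannot be told apart.

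The first comparison asked how the members differ between CD4+ and CD8+ T cells of B6 mice. None of the 20 mitotic genes other than Kif23 passed the test with all samples (without the filter on low counts Cdc20, Mki67 and Top2a did). This absence rested partly on 1 library. Without CD8 replicate 3, Ccnb2 and Kif20a were called, both higher in CD4+ T cells, among 11 members and against 18.8% of all genes. The licensing genes that differed were lower in CD4+ cells, by 1.52-fold at most (Mcm6). Of the 46 genes, 3 were higher and 9 lower in CD4+ T cells at an adjusted P under 0.05 in edgeR, against 11.4% and 11.7% of all tested genes. The median log2 fold change was -0.19 over the members and -0.0011 over all genes. Samples of the groups did not overlap in 12 of the 46, where 39% of all genes were so separated. By the study's own limits of a 5-fold change and an unadjusted P under 0.05, 0 members differed, against 3.29% of all genes, and 14 members reached that unadjusted P, as did 33% of all genes.

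Kif23, a kinesin of the central spindle that is needed for cytokinesis, gave the clearest difference. It lies on chromosome 9 (chr9:61915905-61946774, minus strand, GRCm38) and overlaps no other annotated gene. Its level was 6.73, 8.06 and 8.63 CPM in B6 CD4+ and 20.7, 21.7 and 21.4 in B6 CD8+ T cells. In CD8Dual mice it was 7.54, 9.33 and 7.17 CPM in CD8.1 and 20.9, 21.8 and 18.5 in CD8.2 T cells. Every CD4 and CD8.1 sample lay below every CD8 and CD8.2 sample. The log2 fold change was -1.44 (SE 0.12, adjusted P = 3.2e-07) in B6 mice and -1.34 (SE 0.12, adjusted P = 9.86e-07) in CD8Dual mice. Between strains Kif23 differed by 0.04 (SE 0.13) in the CD4 lineage and by -0.06 (SE 0.12) in the CD8 lineage on the log2 scale, with adjusted P of 0.881 and 0.804. Unlike the 20 other mitotic genes, it was not highest in replicate 3 among the B6 CD8+ samples. Racgap1, which forms the centralspindlin complex with the Kif23 protein, was the gene of smallest P in the list of other mitosis genes, with log2 fold changes of -3.69 (SE 0.18) in B6 and -2.25 (SE 0.17) in CD8Dual mice, adjusted P of 3.81e-10 and 5.99e-08.

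Of the 10 licensing and fork genes, 5 were lower in B6 CD4+ than in CD8+ T cells: Mcm3, Mcm5, Mcm6 and Mcm7 of the helicase, and Cdt1, which loads it. Mcm6 was at 92.0, 90.9 and 94.0 CPM in CD4+ and 122, 127 and 172 CPM in CD8+ T cells, a log2 fold change of -0.60 (SE 0.11, adjusted P = 0.000528). Cdt1 was at 36.3, 31 and 31.9 CPM in CD4+ and 49.8, 49.8 and 47.0 CPM in CD8+ T cells, a log2 fold change of -0.57 (SE 0.09, adjusted P = 0.000171). Their CD4+ and CD8+ samples did not overlap, and unlike the Mcm genes Cdt1 was not raised in CD8 replicate 3. The other 3 Mcm genes called had log2 fold changes of -0.43 (Mcm3), -0.36 (Mcm5) and -0.32 (Mcm7). Mcm5 and Mcm7 were not called once CD8 replicate 3 or CD4 replicate 2 was left out, nor was Mcm5 without CD4 replicate 3, while Mcm3, Mcm6 and Cdt1 were called without any 1 of the 12 samples. Pcna and Mcm4 differed by 0.07 (SE 0.09) and -0.10 (SE 0.08), with adjusted P of 0.622 and 0.455.

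Of the 7 G1 genes, 4 differed in B6 mice. Ccne1, the cyclin E1 that pairs with Cdk2 at the entry to S phase, was lower in CD4+ T cells, at 5.64, 4.79 and 6.76 CPM against 11.8, 11.2 and 12.1 (log2 fold change -1.03, SE 0.16, adjusted P = 0.000149). Ccnd2, the D-type cyclin most abundant here, was also lower, at 490, 437 and 440 CPM against 566, 555 and 571 (log2 fold change -0.31, SE 0.07, adjusted P = 0.00339). Cdkn1b, which encodes the Cdk inhibitor p27, was higher in CD4+ T cells. It measured 98.8, 104 and 95.9 CPM in CD4+ and 73.0, 72.7 and 74.6 CPM in CD8+ T cells, a log2 fold change of 0.44 (SE 0.06, adjusted P = 9.98e-05). For these 3 genes the groups did not overlap and replicates lay close together. E2f2, an activating E2F factor, was higher in CD4+ T cells by 0.79 (SE 0.27, adjusted P = 0.0424) on the log2 scale with overlapping samples, at 26.2, 27.6 and 43.7 CPM against 14.7, 12.8 and 29.3.

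Stmn1, or stathmin, which destabilises microtubules, was at 32.9, 36.1 and 47.5 CPM in B6 CD4+ and 11.7, 10.7 and 34.0 CPM in CD8+ T cells. It was higher in CD4+ cells by 1.06 (SE 0.33, adjusted P = 0.0272) on the log2 scale, and CD8 replicate 3 lay among the CD4+ samples. The calls of Stmn1 and E2f2 were lost without CD8 replicate 1 or 2 or CD4 replicate 3, and that of E2f2 also without any 1 CD8.2 sample. Uhrf1, which guides DNA methylation behind the fork, was lower in CD4+ T cells (log2 fold change -1.14, SE 0.32, adjusted P = 0.0174), and this call was lost without CD4 replicate 2 or without CD8 replicate 3, the sample at 30.02 CPM where the other CD8+ samples had 11.2 and 13.4. The replicate numbers were taken to pair the B6 samples, which no label states. With the number as a block 15 members were called, all 12 above among them, against 24.3% of all genes. The 3 gained were Cdc20 and E2f1, lower in CD4+ T cells (adjusted P = 0.0233 and 0.045), and Hmgb2, higher (adjusted P = 0.0475).

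The same comparison in CD8Dual mice, of CD8.1 with CD8.2, asked whether the lineage difference holds when both populations carry CD8. Here 10 of the 21 mitotic genes were higher in the CD4-lineage cells. Of the 46 members 15 were higher and 4 lower in CD8.1 T cells, against 14.9% and 13.8% of all tested genes, and the median log2 fold change was 0.76, against -0.0047 over all genes. Of the 12 mitotic cyclin, kinase and anaphase genes, 8 were higher and 0 lower in CD8.1, and all 12 fold changes were positive. Of the 21 mitotic genes, 10 had every CD8.1 sample above every CD8.2 sample, a separation found in 19.8% of all genes. No member passed 5-fold with an unadjusted P under 0.05, which 3.32% of all genes did.

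**Figure D2:**
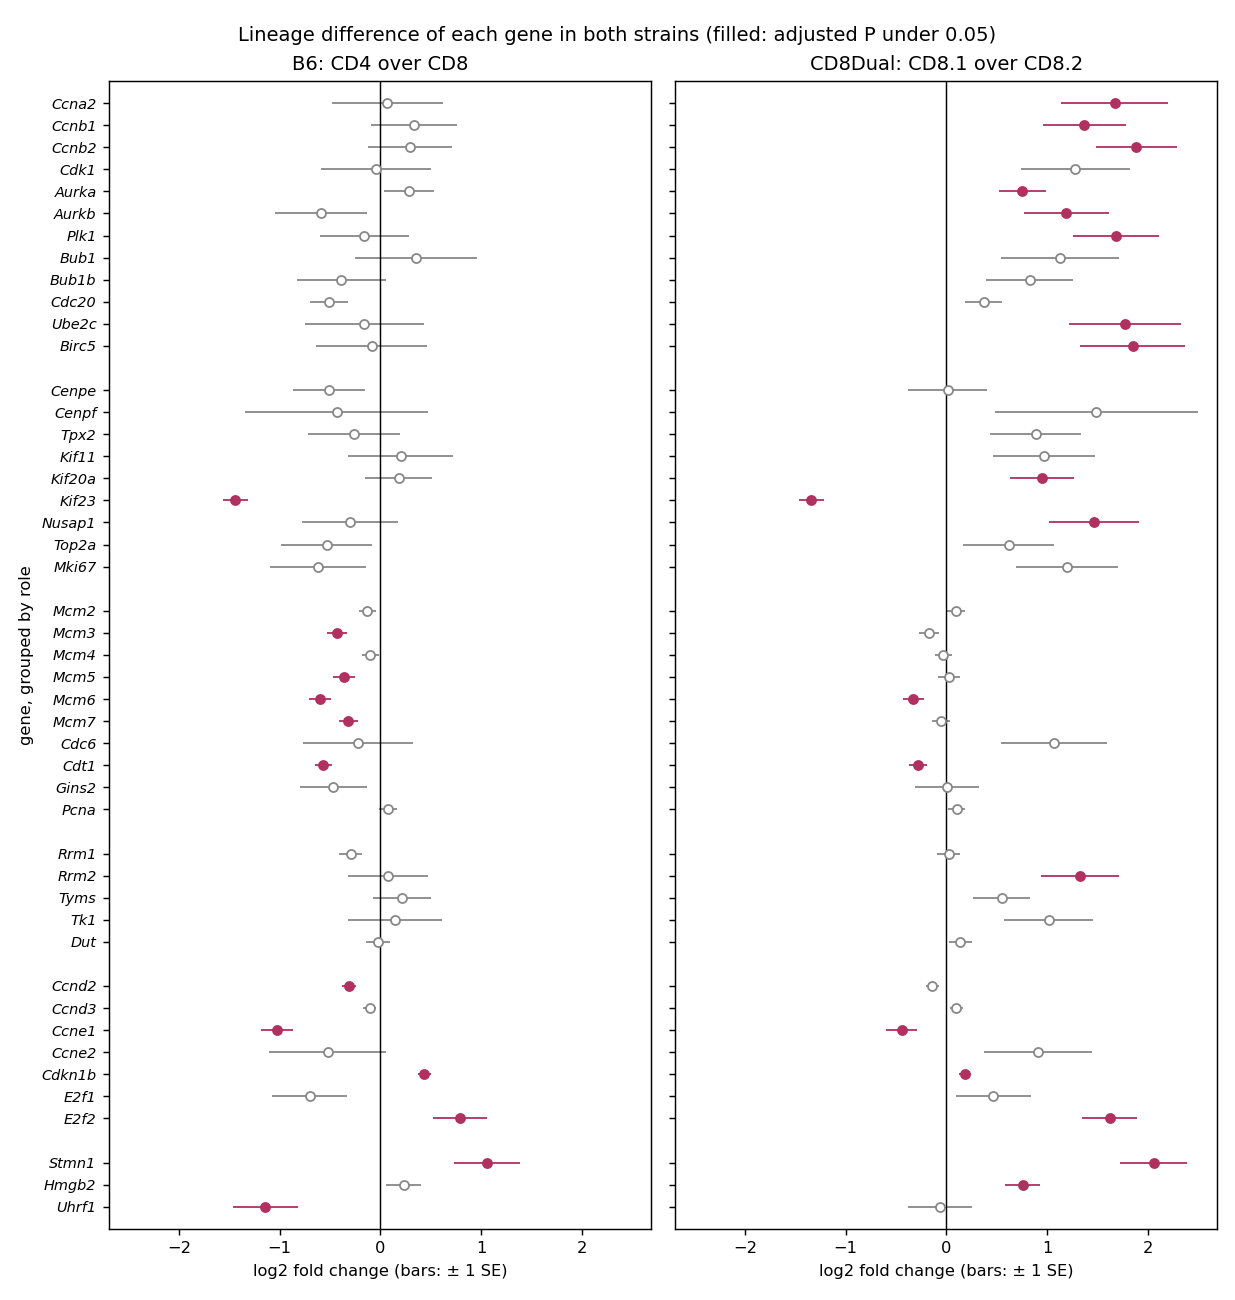
Log2 fold change of each of the 46 genes (points, with bars of 1 SE) between the CD4-lineage and the CD8-lineage group in B6 mice, left, and in CD8Dual mice, right; filled points passed an adjusted P of 0.05. Among mitotic genes only Kif23 is filled on the left, and on the right 10 others are filled on the positive side.

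Ccnb2, cyclin B2, had the smallest adjusted P of the cyclins and kinases. It was at 12.7, 13.8 and 7.50 CPM in CD8.1 and 2.72, 4.22 and 2.42 CPM in CD8.2 T cells, against 3.32, 3.10 and 5.02 in B6 CD4+ and 1.76, 1.71 and 6.11 in B6 CD8+ T cells. Every CD8.1 sample thus lay above all others. The difference from CD8.2 was 1.89 (SE 0.40, adjusted P = 0.00242) on the log2 scale, or 3.70-fold. Plk1, the Polo kinase of the spindle and of mitotic entry, was higher by 1.69 (SE 0.43, adjusted P = 0.00841), and Ccna2 and Ccnb1, cyclins A2 and B1, by 1.67 and 1.37 (adjusted P = 0.0283 and 0.0217). Birc5, the survivin subunit that works with Aurora B at centromeres, was at 11.7, 11.5 and 3.47 CPM in CD8.1 and 1.62, 4.11 and 1.90 CPM in CD8.2 T cells, so its lowest CD8.1 sample lay below a CD8.2 sample. Its log2 fold change was 1.85 (SE 0.52, adjusted P = 0.0157). Ube2c, the ubiquitin-conjugating enzyme of the anaphase-promoting complex, Aurka and Aurkb completed the 8, with log2 fold changes of 1.77, 0.76 and 1.19. Cdc20, which activates that complex, was at 10.1, 9.51 and 7.41 CPM in CD8.1 and 7.02, 8.22 and 5.77 in CD8.2 and did not pass (log2 fold change 0.37, SE 0.18, adjusted P = 0.144).

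Nusap1 and Kif20a, a spindle-bundling protein and a kinesin of cytokinesis, were higher in CD8.1 by 1.47 and 0.95 on the log2 scale (adjusted P = 0.0236 and 0.0351). Mki67 and Top2a had values of 1.20 (SE 0.51, adjusted P = 0.0909) and 0.62 (SE 0.45, adjusted P = 0.333). Of the nucleotide genes, Rrm2, the subunit of ribonucleotide reductase made in S phase, was higher by 1.33 (SE 0.39, adjusted P = 0.0191), at 22.1, 24.3 and 12.7 CPM against 7.41, 10.4 and 6.09. Its partner Rrm1 was at 70.9, 78.1 and 68.2 against 70.9, 71.5 and 71.2 CPM, a log2 difference of 0.02 (SE 0.12).

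Of the 10 licensing and fork genes 0 were higher and 2 lower in CD8.1, with 5 positive and 5 negative fold changes (Cdc6 at 1.07, SE 0.53, adjusted P = 0.145), and of the 7 G1 genes 2 were higher and 1 lower. Mcm6 and Cdt1 were again lower in the CD4-lineage cells, Mcm6 at 114, 118 and 104 CPM in CD8.1 against 137, 142 and 142 in CD8.2, and Cdt1 at 34.5, 39.2 and 39.8 CPM against 44.1, 44.7 and 49.1. Their log2 fold changes were -0.33 (SE 0.11, adjusted P = 0.03) and -0.28 (SE 0.09, adjusted P = 0.0249). Ccne1 was at 6.68, 8.09 and 5.46 CPM in CD8.1 and 9.66, 8.39 and 9.45 in CD8.2 T cells, lower by 0.44 on the log2 scale (SE 0.16, adjusted P = 0.0454). Ccnd2 was at 456, 420 and 455 CPM against 505, 468 and 493 and did not pass (adjusted P = 0.145).

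E2f2 and Stmn1 had the largest fold changes outside the mitotic genes. E2f2 was at 36.8, 55.0 and 35.0 CPM in CD8.1 and at 13.5, 13.7 and 14.0 CPM in CD8.2 T cells, 3.08-fold higher (log2 fold change 1.62, SE 0.27, adjusted P = 0.000361). Stmn1 was at 52.6, 75.4 and 55.2 CPM against 14.3, 18 and 12, 4.17-fold higher (log2 fold change 2.06, SE 0.33, adjusted P = 0.000273). Both were higher in the CD4-lineage cells of each strain. Hmgb2, a chromatin protein that rises in dividing cells, was at 150, 162 and 116 CPM against 87.1, 87.4 and 78.8 (log2 fold change 0.76, SE 0.18, adjusted P = 0.00453). Cdkn1b was at 116, 110 and 114 CPM in CD8.1 and 97.7, 101 and 101 CPM in CD8.2 T cells, a difference of 0.18 (SE 0.06, adjusted P = 0.0413) that no longer passed when any sample but B6 CD4 replicate 3 was left out.

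**Figure D3:**
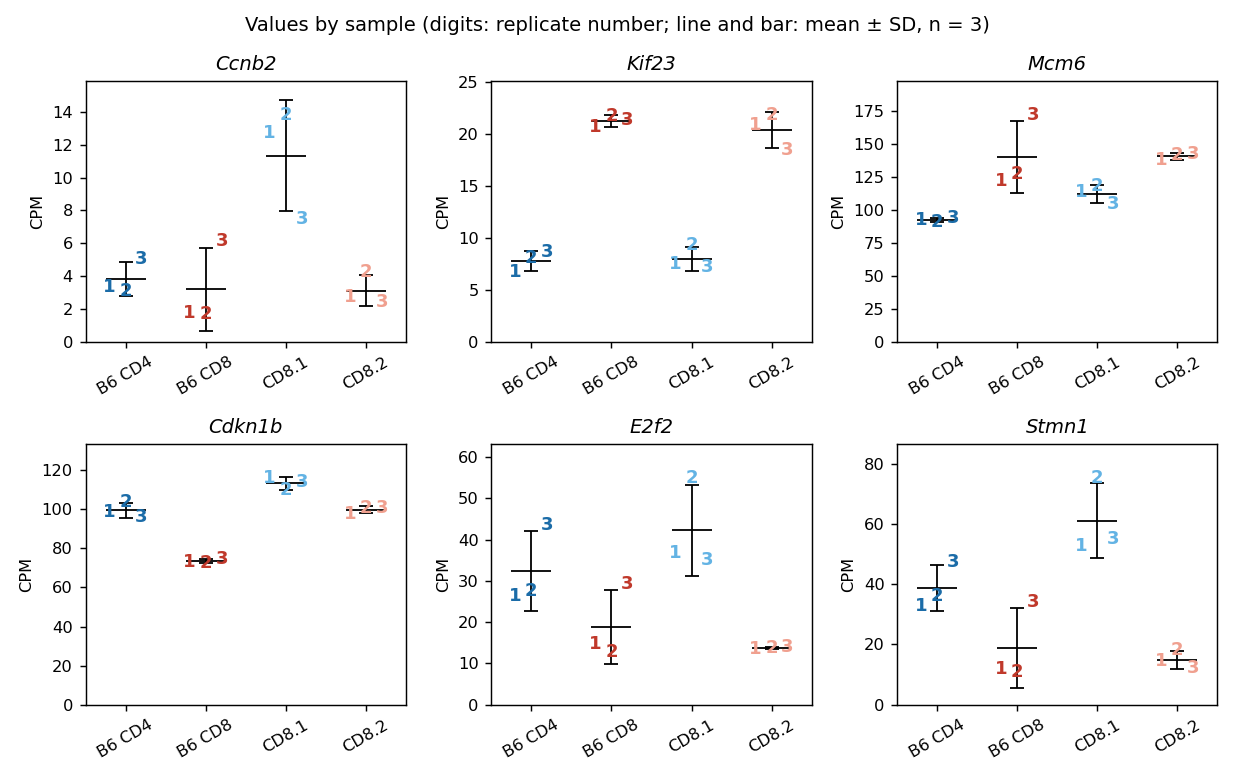
CPM of 6 genes in each sample (digits are replicate numbers; lines and bars are mean ± SD, n = 3). Ccnb2 is highest in CD8.1 T cells, Kif23 and Mcm6 are higher in the CD8-lineage groups, and E2f2 and Stmn1 are higher in the CD4-lineage groups.

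The number of calls rested on single libraries. Without CD8.2 replicate 3, the deepest library, 5 members were called, and without CD8.1 replicate 2 or CD8.2 replicate 1, 8 were, against 19.6%, 20.5% and 20% of all genes. Kif23, Ccnb2, E2f2, Stmn1 and Hmgb2 were called in CD8Dual mice without any 1 of the 12 samples.

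CD8.1 T cells were then compared with B6 CD4+ T cells, the same lineage in another strain and with another co-receptor. The study reports that CD8.1 T cells are selected on MHC-I. Strain, co-receptor and selecting ligand cannot be told apart here. Of the 46 members, 11 were higher and 0 lower in CD8.1, against 6.94% and 5.82% of all genes, and the median log2 fold change was 0.57, against 0.0025 over all genes. Of these, 7 were mitotic cyclin, kinase and anaphase genes (Ccnb2, Aurka, Aurkb, Plk1, Cdc20, Ube2c and Birc5). Cdc20 was at 10.1, 9.51 and 7.41 CPM in CD8.1 and 5.0, 3.71 and 4.34 CPM in B6 CD4+ T cells, 2.07-fold higher (log2 fold change 1.05, SE 0.19, adjusted P = 0.00297). Ccnb2 was 2.97-fold higher (log2 fold change 1.57, SE 0.39, adjusted P = 0.0174). Rrm1 was at 70.9, 78.1 and 68.2 CPM against 49.5, 51.1 and 51.0 (log2 fold change 0.52, SE 0.12, adjusted P = 0.0105). The other 3 were Nusap1, Mcm5 and Hmgb2, with log2 fold changes of 1.67, 0.36 and 0.58. The study's limits were met by 0 members and by 0.61% of all genes, and 22 members had an unadjusted P under 0.05, as did 28.7% of all genes. With the replicate number as a block 6 of the 11 were called, against 11.4% of all genes, and Plk1, Ube2c, Birc5, Mcm5 and Hmgb2 were not. This block joins samples of different strains that share only a number. Their libraries with equal numbers correlated at -0.032, -0.11 and -0.20. Leaving out B6 CD4 replicate 1, B6 CD4 replicate 2 or CD8.1 replicate 2 reduced the 11 calls to 2, Cdc20 and Rrm1 each time. In these runs 5.69%, 6.5% and 6.32% of all genes were called. Leaving out B6 CD8 replicate 3, which enters this comparison only through the shared spread, raised the calls to 18, against 12.8% of all genes. Without both B6 samples numbered 3 there were 20.

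CD8.2 and B6 CD8+ T cells, the same lineage and co-receptor in 2 strains, differed in few members. Of the members 1 was higher and 1 lower in CD8.2, both G1 genes, against 3.29% and 4.66% of all genes, and 0 members met the study's limits, as 0.579% of all genes did. Cdkn1b was at 97.7, 101 and 101 CPM in CD8.2 and 73.0, 72.7 and 74.6 CPM in B6 CD8+ T cells, higher by 0.44 (SE 0.06, adjusted P = 0.000739) on the log2 scale. Ccnd3, a D-type cyclin, was at 142, 155 and 147 CPM in CD8.2 and 200, 197 and 189 in B6 CD8+ T cells, a log2 fold change of -0.40 (SE 0.07, adjusted P = 0.00201). Samples did not overlap for either gene. Ccnd3 was at 149, 165 and 161 CPM in CD8.1 and 183, 177 and 184 in B6 CD4+ T cells, where it had a log2 fold change of -0.20 (SE 0.07, adjusted P = 0.0647). Of the 21 mitotic genes 17 had lower means in the fit for CD8.2, with no call, while 6639 of the 13118 genes were lower. B6 CD8 replicate 3 was the highest of its group in 20 of these 21 genes, and its part in this direction was not tested. Mki67 had the value -1.43 (SE 0.50, adjusted P = 0.0965), beside a single high B6 CD8+ sample.

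Whether the lineage difference itself differs between the strains was tested by an interaction term. No member was called in edgeR, against 1.87% of all genes, and 18 members had an unadjusted P under 0.05, 17 of them positive, and 13.3% of all genes reached that P. A positive term says only that the CD4-lineage minus CD8-lineage difference was higher in CD8Dual mice, as in Ccne1, where a deficit of -1.03 in B6 became -0.44, and in Uhrf1, where -1.14 became -0.06. limma-voom and DESeq2 also called 0, but without the filter on low counts edgeR called 19 members, among them Ccnb2, Cdc20, Birc5 and Mki67, against 2.65% of all genes. All 21 mitotic genes had a positive interaction, with a median of 1.21 on the log2 scale and a range from 0.10 (Kif23) to 1.94 (Birc5), while 6497 of the 13118 genes were positive. High B6 CD8 values raise this term. B6 CD8 replicate 3 was at a median of 3.43 times the mean of replicates 1 and 2 in these genes. How far the shared direction and its size rest on that library was not tested. Without it 0 members were called, against 1.41% of all genes. Ccnb2 had 1.60 (SE 0.58, adjusted P = 0.238) and Cdc20 0.88 (SE 0.26, adjusted P = 0.134). With a block for the replicate number, set separately in B6 and CD8Dual mice, 7 members passed, against 2.52% of all genes. They were Aurkb, Ccnb2, Cdc20, Hmgb2, Nusap1, Plk1 and Rrm2, with adjusted P from 0.027 to 0.0477 in the blocked fit. The numbers were taken to pair the B6 samples, and whether they pair the CD8Dual samples was not decided. Without CD8.1 replicate 1 a single member passed, Cdkn1b, with a smaller CD4-lineage excess in CD8Dual mice, while 10.1% of all genes did. That the mitotic excess of CD8.1 over CD8.2 exceeds the B6 difference was thus not shown by the unblocked test on filtered genes, and the call depends on the filter and the block.

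Genes of the cycle outside the 46 were counted by list, to be read beside the shares of all tested genes. In B6 mice 11.4% of all genes were higher and 11.7% lower in CD4+ than in CD8+ T cells. For CD8.1 these shares were 14.9% and 13.8% against CD8.2, and 6.94% and 5.82% against B6 CD4+ T cells. For CD8.2 against B6 CD8+ T cells they were 3.29% and 4.66%. Of 63 other mitosis genes, 15 were higher and 4 lower in CD8.1 when set against CD8.2 (median log2 fold change 0.57), and 3 were higher and 3 lower in CD4+ than in CD8+ T cells of B6 mice (median -0.0038). After Racgap1 the smallest P values belonged to Kifc1, a minus-end kinesin, which was higher by 1.57 (SE 0.14) in B6 and 1.48 (SE 0.14) in CD8Dual mice in the CD4-lineage cells, and to Cenpa in B6 mice (0.63, SE 0.12) and the condensin gene Smc4 in CD8Dual mice (-0.63, SE 0.09). Against B6 CD4+ T cells, 8 of the 63 were higher in CD8.1 and 1 lower, led by Smc4 (-0.70), Racgap1 (1.09) and Tacc3 (0.89), and 0 of 63 differed between CD8.2 and B6 CD8+ T cells. Of 48 other replication genes, 2 were higher and 12 lower in B6 CD4+ T cells, led by Fanci (1.34), Pole (-1.43) and Ung (-0.50), and 2 were higher and 6 lower in CD8.1 against CD8.2, led by Rfc1 (-0.82), Fanci (0.83) and Orc2 (-0.36).

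Of 44 tested G1 and control genes, 7 were higher and 10 lower in B6 CD4+ T cells, where 11.4% and 11.7% of all genes were. These were led by Cdk6 (-1.26), Cdk2 (1.01) and Ccng1 (0.50). In CD8.1 against CD8.2, 12 were higher and 0 lower, where 14.9% and 13.8% of all genes were, led by Cdc25b (0.82), Cdk2 (0.99) and Ccng1 (0.46). Cdc25b, the phosphatase that activates Cdk1 at mitotic entry, passed the interaction test with 1.29 (SE 0.14, adjusted P = 8.37e-05), as did Cdk6 (1.26, adjusted P = 0.00315), Pkmyt1 (0.81, adjusted P = 0.0494), Racgap1 (1.44, adjusted P = 0.00273) and Smc4 (-0.78, adjusted P = 0.00285). None of the 48 other replication genes did, and 1.87% of all tested genes did.

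Markers of other cells also differed between the groups, in comparisons with mitotic calls and in comparisons without. T cell markers summed to 5441 to 6507 CPM in all samples. The 8 regulatory T cell markers were each higher in CD8.1 T cells, both against B6 CD4+ and against CD8.2 T cells, and their sum was 836 to 946 CPM in CD8.1, 385 to 484 in B6 CD4+, 118 to 122 in B6 CD8+ and 124 to 136 in CD8.2. Foxp3, the defining factor of regulatory T cells, was at 102, 149 and 168 CPM in CD8.1 and 32.6, 37.8 and 44.6 in B6 CD4+ T cells. All 11 memory or effector markers were higher in CD8.1 when set against B6 CD4+ T cells, with sums of 463 to 523 and 181 to 229 CPM, and the sums were 1035 to 1082 in CD8.2 and 1549 to 1918 in B6 CD8+. Of 10 B cell markers, 6 were higher in CD8.1 when B6 CD4+ T cells were the reference and 6 when CD8.2 were. The B cell sums were 748, 772 and 506 CPM in CD8.1, 484, 548 and 261 in CD8.2, 352, 368 and 433 in B6 CD4+ and 262, 205 and 209 in B6 CD8+. In both CD8Dual groups the order of samples by B cell sum was that by summed mitotic genes, while B6 CD8 replicate 3, high in mitotic genes, was not high in B cell or regulatory T cell markers. In B6 mice 7 of the 8 regulatory T cell and 8 of the 10 B cell markers were higher in CD4+ than in CD8+ T cells, where 0 mitotic genes were with all samples in the fit. In CD8.2 against B6 CD8+ T cells, 6 of the 10 B cell and 2 of the 8 regulatory T cell markers were higher, again beside 0 mitotic calls. Their part in the mitotic results was not tested.

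**Figure D4:**
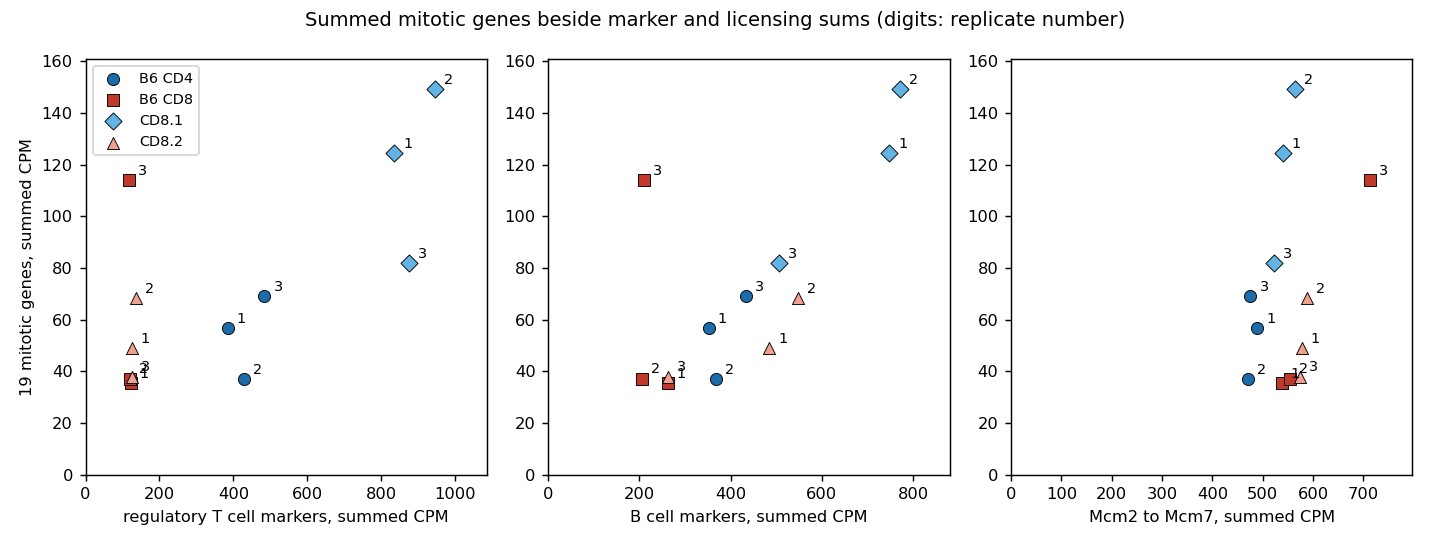
Summed CPM of 19 mitotic genes (all but Kif23 and Top2a) in each sample against summed CPM of 8 regulatory T cell markers, 10 B cell markers and Mcm2 to Mcm7; digits are replicate numbers. CD8.1 samples lie to the right and high for regulatory T cell markers, and B6 CD8 replicate 3 is high at a low marker sum but has the highest Mcm sum. The order of samples depends on leaving out Kif23 and Top2a. With all 21 genes CD8.1 replicate 3 (103 CPM) lay below CD8.2 replicate 2 (111), against 81.7 and 68.4 with 19. B6 CD8 replicate 3 (184) then lay above CD8.1 replicate 1 (161), against 114 and 124 with 19.

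Germinal centre B and plasma cell markers summed to 103 to 119 CPM in CD8.1, 89.8 to 97.7 in B6 CD4+, 61.8 to 68.5 in B6 CD8+ and 76.9 to 82.3 in CD8.2, mostly from Xbp1, Fas and S1pr2, so that every CD8.1 sample lay above all others. Myeloid sums were 101 to 110 CPM in CD8.1 and 66.5 to 104 elsewhere, mostly from Cst3. Of the myeloid markers 5 were higher in CD8.1 when set against B6 CD4+ T cells. Only Fcer1g and Itgam were higher when CD8.1 was set against CD8.2 T cells. Immature thymocyte markers summed to 19.9 to 25.7 CPM in CD8.1 and 6.30 to 19.4 elsewhere, with Rag2 at 0 in every sample. NK cell sums were at most 7.49 CPM and erythroid sums at most 26.3 CPM, and naive T cell markers summed to 3611 to 4047 CPM.

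Of the 46 genes 20 overlap another annotated gene. Among them, Nusap1, Ube2c, Ccna2, Cdc20, Kif20a, Plk1, Mcm7, Ccnd2 and Ccnd3 have a neighbour on the other strand. Cdt1 and Rrm1 overlap a gene on the same strand. The use of strand in counting is not given in the sources used here. Part of the counts of these genes may thus belong to the neighbour. Kif23, Ccnb2, Ccnb1, Aurka, Aurkb, Birc5, Mcm3, Mcm5, Mcm6, Ccne1, Cdkn1b, E2f2, Hmgb2 and Rrm2 are among the 26 that overlap none.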

How the data were processed

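RNA-seq of 12 LN T cell samples, 3 in each of 4 groups, was used, with groups and replicate numbers taken from the sample titles. The authors made libraries with a low-input SMARTer kit, sequenced read pairs, aligned them to mm10 with STAR and deposited raw counts per gene from RSEM, as whole numbers without normalization. Versions, the annotation release and the use of strand are not given in the sources used here. Each of the 12 columns matched 1 sample by name, and the deposited counts were tested with edgeR 4.0.16 (R 4.3.3; quasi-likelihood fit of all 4 groups, TMM, filterByExpr, Benjamini-Hochberg over all 13118 genes kept of 49585), with calls at an adjusted P under 0.05. Where the text gives an adjusted P, it comes from this test, or from its blocked version where a block for the replicate number is named. Standard errors came from the fold change and F statistic. The code was first tested on simulated data. Replicates were compared before averaging, and their chi-square per gene was 8.77 to 87.1, so that no pair was as alike as sampling noise. After subtracting group means, B6 CD4+ and CD8+ libraries with equal numbers correlated at 0.13, 0.14 and 0.26 over all genes. From these values and the numbers in the titles, the B6 samples were taken as paired, which no label states. The main test carried no block, and the blocked fit is given as an alternative. Alternatives were DESeq2 1.42.0 and its size factors, limma-voom (limma 3.58.1), other filters and call rules, 2-group fits, the replicate block and samples left out. Gene positions and exon lengths came from GENCODE M21 (GRCm38) and promoters from RefSeq. Intervals of counting error were not needed, since all members were above 0 counts. Members, gene lists and marker lists were chosen with earlier results of these data known. Named with values were members with an adjusted P under 0.05 in any comparison (by sample for the 12 of smallest adjusted P), the 2 highest per length of each role, and Mki67, Top2a, Ccnd2, Ccnd3 and Cdkn1b, with Birc5, Rrm1 and Rrm2 by sample added after their values were seen. From each other list the 3 of smallest P were named. Figures were drawn with matplotlib 3.10.9.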

Additional observations from a re-analysis of the deposited data

How the results depend on the processing

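Counts of members called were 12 (B6 CD4 versus CD8), 19 (CD8.1 versus CD8.2), 11 (CD8.1 versus B6 CD4), 2 (CD8.2 versus B6 CD8) and 0 (interaction). DESeq2, its size factors, limma-voom and a mean of at least 1 CPM kept each count within 1.5 times. Without a filter on low counts 17, 29, 28, 9 and 19 members were called, against 14.1%, 17.6%, 10%, 6.8% and 2.65% of the 23418 genes tested. Fitting only the 2 groups compared gave 4 for CD8.2 versus B6 CD8, against 20.3% of all genes. An unadjusted P under 0.05 gave 22 for CD8.1 versus B6 CD4, 6 for CD8.2 versus B6 CD8 and 18 for the interaction, against 28.7%, 23.7% and 13.3% of all genes; an adjusted P under 0.01 gave 7, 6 and 1 in the first 3 comparisons, against 15.1%, 16.8% and 4.22%. A fold over 5 gave 0 in each. With 1 sample left out the counts ran from 9 to 12, 5 to 19, 2 to 18, 2 to 3 and 0 to 1. The shares of all genes called in these runs were 18% to 28%, 19.6% to 37.4%, 5.69% to 22.1%, 3.21% to 14.3% and 1.23% to 10.1%. Without both B6 samples numbered 3, an alternative chosen after seeing the data, they were 9, 24, 20, 3 and 0. Of the recomputed log2 fold changes of called members, 740 kept their call, 140 lost it and 0 changed direction; the cause was not tested. Summed CPM of each role stayed within 1 SD in all 96 recomputed values.

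With the replicate number as a block, 15 members were called in B6, 26 in CD8Dual mice, 6 for CD8.1 versus B6 CD4, 2 for CD8.2 versus B6 CD8 and 7 for the interaction, against 24.3%, 31.3%, 11.4%, 6.72% and 2.52% of all genes. The 5 lost for CD8.1 versus B6 CD4 were Birc5, Hmgb2, Mcm5, Plk1 and Ube2c. CD8.1 and CD8.2 libraries with equal numbers correlated at -0.0039, 0.091 and 0.12, and those of different strains at -0.20 to -0.0041. Samples of different strains thus share only a number. CD8.1 replicate 1 correlated best with CD8.2 replicate 2, at 0.032, while replicates 2 and 3 correlated best with their own number. These values do not decide whether the numbers pair the CD8Dual samples. Depth limits the mitotic genes most: several lay under 2 CPM, and Cenpf was at 1 count in a sample.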
